A study of Mus musculus with 8 samples.

Results

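The genes described here encode the enzymes that activate, hand over and remove ubiquitin in mouse 2-cell embryos with and without Dux. Members were all rows of the gene table with a symbol of the form Uba followed by a digit from 1 to 7, or starting with Ube2, Usp and a digit, Uchl, Otud or Otub, leaving out 4 rows of the repeated Usp17l family. The rule used symbols alone and took 98 of 13101 genes, namely 5 named as E1 activating enzymes, 34 as E2 conjugating enzymes and 59 as deubiquitinases. A symbol is not a function: Ube2d-ps and Ube2n-ps1 are named as pseudogenes, Uchl1os is antisense to Uchl1, and Usp6nl encodes a GTPase-activating protein with no peptidase activity. The test could be made for 96 members with a mean of at least 0.5 FPKM (fragments per kilobase of transcript, scaled to library size), whichever group was the higher. Usp40, at 0.176 ± 0.0683 and 0.226 ± 0.0368 FPKM, and Otud7b, at 0.223 ± 0.0441 and 0.265 ± 0.0446 FPKM, were too low for it. Values joined by "and" here and below are those of WT and then Dux KO, as mean ± SD where a ± is given (n = 4).

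Ubiquitin is a small protein that cells attach to other proteins, often to send them to the proteasome and otherwise to change their location or partners. An E1 enzyme charges ubiquitin with the use of ATP, an E2 enzyme takes it over, and an E3 ligase brings the E2 to the substrate. Deubiquitinases of the UCH, OTU and USP families cut ubiquitin off again, free new ubiquitin from its precursors and trim chains, and SUMO, NEDD8 and UFM1 are attached by E1 and E2 enzymes of their own. In the early embryo, removal of maternal proteins by this system accompanies the handover from maternal to embryonic products.

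RNA was measured in 8 pools of mouse embryos at the 2-cell stage, 4 from wild-type (WT) and 4 from Dux knockout (Dux KO) embryos, each pool holding 12 to 18 embryos from timed matings. Both groups have the C57BL/6 background and received no treatment named in the labels. DUX is a transcription factor with a pair of homeodomains that is made at this stage, and the series asks whether genome activation needs it. PolyA RNA was copied and amplified with a low-input kit, and amplified cDNA was cut and tagged for sequencing. The labels used here do not describe the knockout allele or the parentage of the pools, so each p-value rests on the spread among pools, which may be technical.

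The table held 12343369 to 14548526 whole gene reads per pool, recovered from the steps of the FPKM values. Members took 1.14 to 1.26% of them in WT pools, against 1.29 to 1.34% in Dux KO pools. Such a share of reads gives long transcripts more weight. Summed FPKM of all members, which allows for length, was 2424 ± 241 and 2316 ± 65.5, with overlap. As a percentage of all FPKM the sum was 0.527 ± 0.0272 and 0.581 ± 0.0172, also with overlap. The gene that was knocked out was not analysed here. MERVL-int, the internal part of a retrovirus that DUX is known to activate, lay at 11360 to 16381 FPM (fragments scaled to library size) in WT, above the 4548 to 6050 of Dux KO, without overlap. Of 11 markers of the oocyte and 2-cell embryo, 10 were measured, with summed levels of 5061 to 6160 FPKM in WT pools, against 3719 to 4449 in Dux KO pools. Most of each sum came from Dppa3, at 4576 to 5665 FPKM in WT and 3158 to 3747 in Dux KO. Of them Bmp15 and Zar1 were higher and Zp3 and Dppa3 lower in Dux KO. Of 11 cumulus and granulosa cell markers, Cyp19a1, Inha, Star and Tnfaip6 were measured, with sums of 1.45 to 10.3 FPKM in WT pools, against 5.68 to 20.99 in Dux KO pools, and Cyp19a1 was called higher. Of 7 oviduct markers, Epcam, Krt18 and Ovgp1 were measured, with sums of 129.8 to 149.8 and 96.8 to 137.8 FPKM, most of it from Epcam, which was called lower. Of 7 blood markers Cd52 alone was measured, at 1.39 to 4.55 and 1.61 to 6.02 FPKM, and 0 of 7 sperm markers was. The part of other cells in the results below was not tested, and in bulk samples fewer cells of a type and less RNA per cell cannot be told apart.

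The promoters of the 2 members with the largest rise and the 2 with the largest fall on the log2(FPKM + 1) scale are shown, from 250 bases before to 50 after the RefSeq start, so that the most changed members can be set beside each other. Capitals mark the GC box GGGCGG (or its reverse complement) and the E-box CACGTG, and each sequence runs 5′ to 3′ on the gene's strand of GRCm38.p6. Usp2 and Ube2d1 were higher in Dux KO, Ube2dnl1 and Usp32 lower. The windows of Usp2 (chr9:44084670-44084969) and Usp32 (chr11:85139906-85140205, minus strand) are at starts inside the annotated genes. Those of Ube2d1 (chr10:71285213-71285512, minus strand) and Ube2dnl1 (chrX:114904762-114905061) are at the outer start.
Usp2: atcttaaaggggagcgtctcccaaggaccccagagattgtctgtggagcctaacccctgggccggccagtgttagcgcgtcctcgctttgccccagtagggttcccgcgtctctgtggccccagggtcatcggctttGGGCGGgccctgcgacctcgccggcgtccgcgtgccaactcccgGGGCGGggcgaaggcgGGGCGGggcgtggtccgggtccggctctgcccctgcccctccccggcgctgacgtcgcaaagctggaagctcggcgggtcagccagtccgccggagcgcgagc
Ube2d1: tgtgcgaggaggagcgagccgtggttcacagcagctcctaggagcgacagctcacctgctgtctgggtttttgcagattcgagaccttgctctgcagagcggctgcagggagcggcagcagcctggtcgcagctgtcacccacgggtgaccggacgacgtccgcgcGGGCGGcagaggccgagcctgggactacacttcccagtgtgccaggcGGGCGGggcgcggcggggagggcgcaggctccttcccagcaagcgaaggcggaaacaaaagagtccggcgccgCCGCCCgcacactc
Ube2dnl1: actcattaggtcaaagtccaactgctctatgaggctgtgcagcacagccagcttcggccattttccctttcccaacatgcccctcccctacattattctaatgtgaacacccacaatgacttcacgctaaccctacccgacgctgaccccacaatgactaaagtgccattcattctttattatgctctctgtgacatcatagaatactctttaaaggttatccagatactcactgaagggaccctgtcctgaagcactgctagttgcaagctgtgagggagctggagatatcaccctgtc
Usp32: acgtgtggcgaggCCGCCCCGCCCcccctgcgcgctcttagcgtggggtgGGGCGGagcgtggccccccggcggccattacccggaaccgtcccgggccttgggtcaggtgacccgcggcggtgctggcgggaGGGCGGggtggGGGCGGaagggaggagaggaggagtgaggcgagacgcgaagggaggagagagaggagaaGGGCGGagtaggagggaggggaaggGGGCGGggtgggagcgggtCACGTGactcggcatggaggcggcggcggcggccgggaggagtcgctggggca
The windows of Usp2, Ube2d1 and Usp32 held 3, 3 and 7 GC boxes, at 71.7%, 68.7% and 75.7% G and C. Ube2dnl1 had a different kind of window, with 0 GC boxes, 47.7% G and C, and 1.33 CpG per 100 bases against 10 to 11.3 in the others.

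Ubiquitin enzymes moved in both directions in Dux KO embryos, with no common shift. In Dux KO, 14 members were called higher and 15 lower, that is 14.6% and 15.6% of the 96, at a Benjamini-Hochberg adjusted p under 0.05 in limma over all tested genes. Of all 12434 tested genes, 15.5% were called higher and 18.1% lower, so that members were called about as often as other genes (either way, 33.6% of all genes and 29 of the 96 members). The median log2 fold change, taken throughout on the log2(FPKM + 1) scale as Dux KO minus WT, was 0.06 over the members and -0.02 over all tested genes. This scale understates the change of genes with few FPKM. Of the members 52.1% lay above 0, and of all genes 48.4%. The 4 and 4 values did not overlap for 37 members (38.5%), against 33.1% of all genes. Among the 29 called members 26 had no overlap, Usp33, Usp8 and Ube2d2a being the others, and 10 changed at least 2-fold by the ratio of means. E2 genes gave 5 higher and 6 lower calls, deubiquitinase genes 9 and 8, and E1 genes 0 and 1. Counts of calls by role below stand beside the same 15.5% and 18.1% of all tested genes.

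**Figure D1:**
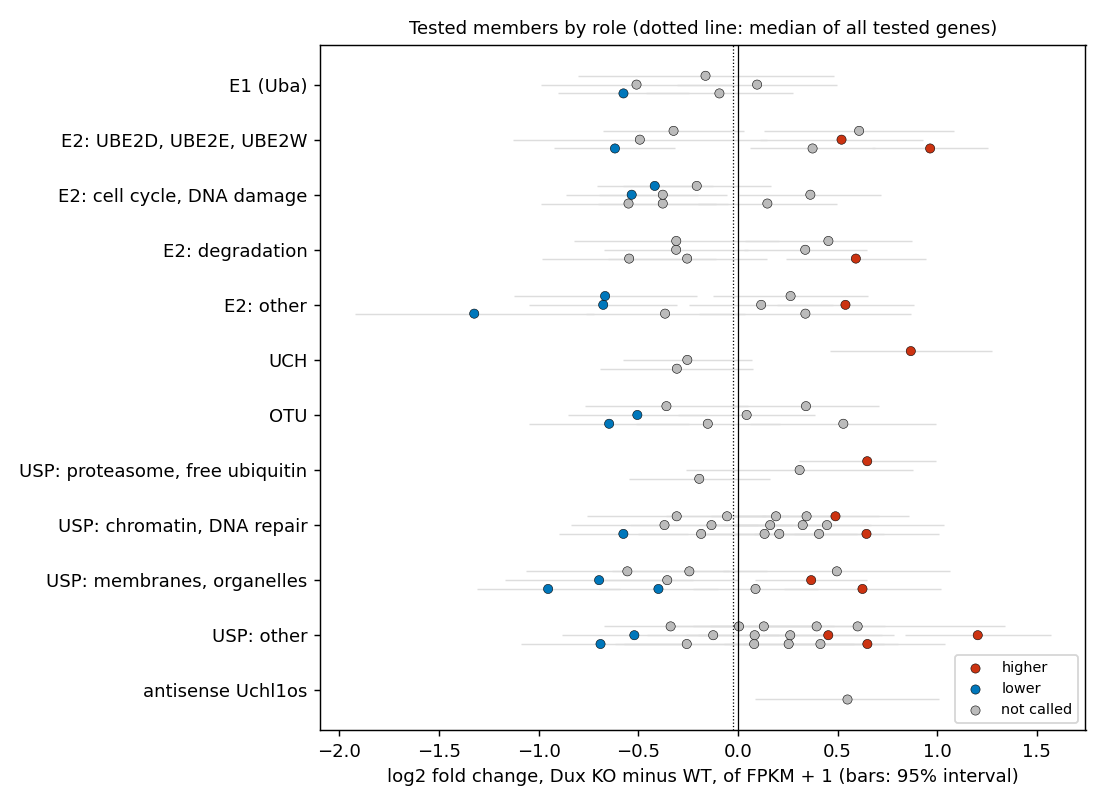
Log2 fold change (Dux KO minus WT, of FPKM + 1) of tested members by role, with bars for the 95% interval from limma and colours for the call. Higher and lower calls lie on both sides of 0 in the UBE2D, other E2, chromatin, membrane and other USP groups, and the E1 row has 1 call, lower.

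Summed over each class, levels overlapped between the groups. E1 genes summed to 90.2 ± 14.0 FPKM in WT and 74.1 ± 6.25 in Dux KO, E2 genes to 1194 ± 160 and 1037 ± 95.8, and deubiquitinase genes to 1140 ± 82.5 and 1204 ± 53.6 (SD, n = 4). Ube2c alone supplied 432 ± 108 FPKM of the E2 sum in WT. Within the E2 class, sums of the cell cycle and DNA damage E2 genes lay at 697 to 988 FPKM in WT, against 503 to 714 in Dux KO, with overlap. Sums of the UCH genes, mostly Uchl1, lay at 214 to 300.4 in WT, against 337 to 469 in Dux KO, and those of the OTU genes at 203 to 265 and 158 to 184.

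**Figure D2:**
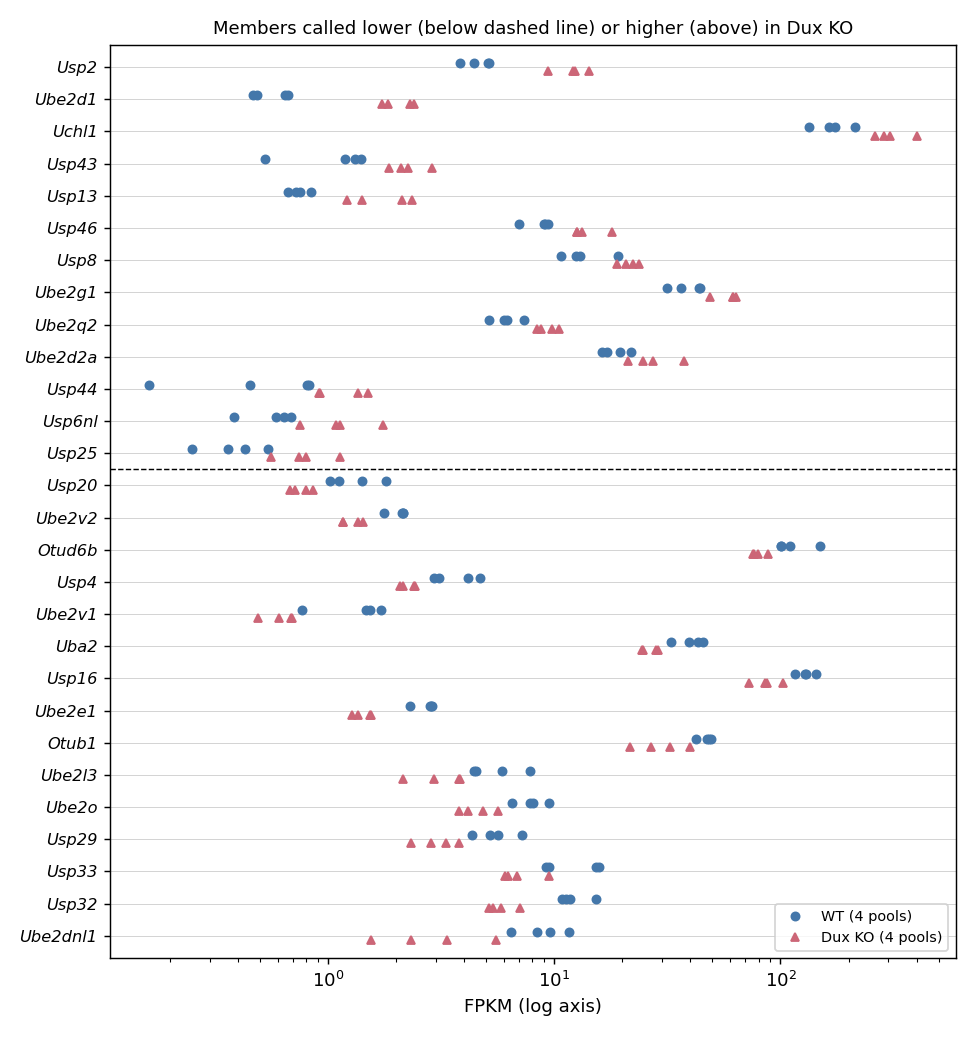
FPKM on a log axis in each of 4 WT pools (circles) and 4 Dux KO pools (triangles) for called members, ordered by log2 fold change, with higher calls above the dashed line. The groups touch or cross in the rows of Usp8, Ube2d2a and Usp33 and are apart in the others shown.

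Among the E1 genes, Uba2 fell, and Uba1, Uba3 and Uba6 were not called. Uba2, the catalytic subunit of the SUMO E1, lay at 32.7, 39.3, 45.6 and 43.2 FPKM in WT replicates 1 to 4 and at 28.8, 24.7, 24.4 and 28.3 in Dux KO replicates 1 to 4. Every Dux KO pool was below every WT pool, and the log2 fold change was -0.57 (limma BH-adjusted p = 0.0156). Uba1, the main ubiquitin E1, on chromosome X, lay at 13.4, 12.5, 21.1 and 20.2 FPKM in WT and 12.9, 10.5, 11.2 and 28.7 in Dux KO. Dux KO replicate 4 was the highest of all 8 pools and the other 3 Dux KO pools among the lower, so that the interval was wide, -0.80 to 0.48 (limma BH-adjusted p = 0.6802). Uba6, the other ubiquitin E1, had means of 6.28 ± 0.449 and 5.91 ± 1.22 FPKM, a log2 fold change of -0.09, and overlapping groups. Uba3, the NEDD8 E1 subunit, gave 18.9 ± 2.604 and 20.5 ± 5.03 FPKM and 0.10. The call of Uba2 held without each single library in turn.

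The UBE2D, UBE2E and UBE2W enzymes, which work with a wide range of E3 ligases, gave 2 higher and 1 lower call among 7 genes. Ube2d1, on chromosome 10 at 71254980 to 71285262, was the most changed E2 to rise, from 0.465, 0.642, 0.665 and 0.487 FPKM in the WT pools to 2.301, 2.39, 1.84 and 1.72 in the Dux KO pools. Every Dux KO pool was at more than double the highest WT pool, with a 3.65-fold ratio of means and a log2 fold change of 0.96 ± 0.13 (SE, limma BH-adjusted p = 0.00207), from 25 to 164 reads per pool. Ube2d2a, a close relative, was called at 18.7 ± 2.502 and 27.7 ± 7.08 FPKM with a limma BH-adjusted p of 0.04997, and its lowest Dux KO pool, 21.2, lay under its highest WT pool, 21.8. Ube2d3, the most abundant UBE2D gene, had 25.5 ± 4.63 and 40.3 ± 11.98 FPKM and just missed the threshold at 0.0502. Ube2e1 fell, from 2.88, 2.31, 2.83 and 2.86 FPKM to 1.53, 1.27, 1.54 and 1.35. Its WT replicate 2 stood below the other 3 WT pools but above every Dux KO pool, and the log2 fold change was -0.62 (limma BH-adjusted p = 0.00899). Ube2e2 and Ube2e3 had negative log2 fold changes, -0.32 and -0.49, that were not called, and Ube2w, 31.6 ± 3.87 and 41.1 ± 3.32 FPKM, was not called with groups apart. Exons of Ube2e1 overlap those of Nkiras1 on the other strand over 16.1% of their bases, and Nkiras1 was lower too, at 39.7 and 28.1 FPKM. With no strand setting known, reads in the shared bases cannot be told apart. The call of Ube2d2a ended without each library except Dux KO replicate 3 (limma BH-adjusted p 0.0502 to 0.115), and with a pseudocount of 0.1 (0.0515), no filter (0.052) or no trend and robust moderation (0.0509).

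Of 8 E2 genes of the cell cycle and DNA damage, 2 were called lower, both low in level, while Ube2c, Ube2a and Ube2b, the most abundant E2 genes, were not called. Ube2c, which with the anaphase-promoting complex starts ubiquitin chains on mitotic substrates, was the most abundant member, at 370.2, 335, 578 and 446 FPKM in WT and 315, 221, 306 and 328 in Dux KO. No Dux KO pool reached the lowest WT pool, the log2 fold change was -0.55 ± 0.20 (SE), and the limma BH-adjusted p was 0.0529. The call was made by edgeR and DESeq2 on recovered reads (adjusted p 0.033 and 0.0215). With quantile normalization the log2 fold change was -0.34 for Ube2c, -0.12 for Ube2a and 0.052 for Ube2b. The exons of Ube2c share 22.8% of their bases with Tnnc2. Ube2a and Ube2b, the paired RAD6 enzymes that ubiquitinate histone H2B and PCNA, were at 158 ± 18.1 and 121 ± 13.05 FPKM (Ube2a) and at 173 ± 17.02 and 152 ± 30.4 FPKM (Ube2b). The groups of Ube2a did not overlap, with the lower values in Dux KO, at a limma BH-adjusted p of 0.0656, and Ube2b overlapped at 0.352. Ube2v1 and Ube2v2 are E2-like proteins without a catalytic cysteine that pair with Ube2n to build K63-linked chains. Ube2v2 fell from 2.12, 2.15, 1.76 and 2.15 FPKM to 1.16, 1.17, 1.36 and 1.43 (log2 fold change -0.42, limma BH-adjusted p = 0.0334). Ube2v1 was lower at 1.37 ± 0.419 and 0.619 ± 0.0938 FPKM, but it shares 61.5% of its exonic bases with the readthrough gene Gm20431, which makes the value uncertain. Ube2n itself, 10.9 ± 1.47 and 8.17 ± 0.638 FPKM, had groups apart, Dux KO the lower, and was not called (0.0703). Ube2s and Ube2t, which extend mitotic chains and act in Fanconi anaemia repair, had log2 fold changes of 0.36 and 0.15. The call of Ube2v2 ended without each library except WT replicate 3 and Dux KO replicate 4 (0.0516 to 0.0900) and with the replicate block (0.0508), and that of Ube2v1 without WT replicate 4 (0.0566) or Dux KO replicate 2 (0.0553).

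Among 7 E2 genes of protein degradation 1 was called, Ube2g1, which builds K48-linked chains with cullin-RING and endoplasmic reticulum ligases. Ube2g1 rose from 44.2, 31.4, 43.8 and 36.3 FPKM in the WT pools to 61.7, 63.7, 48.6 and 61.7 in the Dux KO pools. Dux KO replicate 3 was the lowest of its group and still above the highest WT pool (log2 fold change 0.59, limma BH-adjusted p = 0.0181). Ube2k, a K48-chain E2 and the most abundant of this list, had 63.8 ± 5.55 and 81.04 ± 9.12 FPKM, with every Dux KO pool above every WT pool and a limma BH-adjusted p of 0.0829. Ube2g2 and Ube2j1, of degradation at the endoplasmic reticulum, had opposite signs, -0.55 and 0.45, and neither was called. The call of Ube2g1 ended without WT replicate 4 (0.0518) or Dux KO replicate 1 (0.0523).

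For the enzymes of ubiquitin-like proteins, the following were measured beside Uba2 and Uba3. Sae1, the partner of Uba2 in the SUMO E1, had 42.7 ± 13.5 and 29.2 ± 5.43 FPKM and was not called (limma BH-adjusted p = 0.113). Ube2f and Ube2m, the NEDD8 E2 enzymes, and Ube2z, which takes ubiquitin-like FAT10 and ubiquitin from Uba6, were not called, with log2 fold changes of 0.13, 0.23 and -0.04. Neither Uba3 nor these NEDD8 E2 enzymes were called, and Nae1, the partner of Uba3, had 23 and 22.6 FPKM.

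Of 8 other E2-named genes, 3 fell and 1 rose. Ube2dnl1, a Ube2d-like gene on chromosome X at 114905012 to 114905941, had the largest fall of all members on this scale and by ratio of means, from 6.46, 11.6, 9.61 and 8.38 FPKM to 2.32, 1.54, 3.36 and 5.51. Dux KO replicate 4 was nearest to WT and still below the lowest WT pool (log2 fold change -1.32 ± 0.27 SE, limma BH-adjusted p = 0.00657, 18 to 120 reads per pool). Of its 50-base windows 11.7% also occur in Ube2dnl2, so that reads of both copies may be mixed. Ube2o, a large enzyme with both E2 and E3 activity that clears unassembled proteins during red cell maturation, fell from 6.52, 7.81, 8.04 and 9.44 to 4.17, 3.79, 4.82 and 5.66 FPKM (log2 fold change -0.68, limma BH-adjusted p = 0.0135). Ube2l3 (UBCH7), which serves HECT and RBR ligases, fell from 4.51, 4.4, 5.898 and 7.83 to 2.92, 2.14, 3.82 and 3.797 FPKM without overlap (-0.67, limma BH-adjusted p = 0.0317). Ydjc on the opposite strand covers 28.6% of its exonic bases and was not called at 2.897 and 2.002 FPKM. Ube2q2 rose, from 5.12, 5.99, 6.17 and 7.32 to 10.5, 8.76, 8.41 and 9.79 FPKM (0.54, limma BH-adjusted p = 0.0232), and 16.4% of its windows also occur in Gm4895. The calls of Ube2dnl1 and Ube2o held without each single library. That of Ube2l3 ended without WT replicate 3 or 4 or Dux KO replicate 1 or 2 (0.0635 to 0.0899), and that of Ube2q2 without WT replicate 1 (0.0623) or Dux KO replicate 1 (0.0705).

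Uchl1 was the most abundant deubiquitinase and the most abundant member to rise. This UCH hydrolase, an abundant protein of oocytes and neurons, binds and frees monoubiquitin. Its level was 175, 214, 164 and 134 FPKM in the WT pools and 305, 402, 287 and 261 in the Dux KO pools, with all of the latter above the former. The log2 fold change was 0.87 ± 0.19 (SE, limma BH-adjusted p = 0.00741) and the call held without each single library. Uchl3, which trims ubiquitin and NEDD8 ends, and Uchl5, a proteasome subunit, were at 65.2 ± 10 and 54.04 ± 2.41 FPKM (Uchl3) and at 26.2 ± 2.37 and 21.3 ± 4.58 FPKM (Uchl5) and were not called, both with a negative log2 fold change (-0.25 and -0.31). The antisense gene Uchl1os lay at 0.892, 0.855, 0.569 and 0.867 FPKM in WT and 0.975, 2.99, 1.91 and 1.05 in Dux KO, without overlap and not called (limma BH-adjusted p = 0.06403). Its exons cover 18.1% of the exonic bases of Uchl1, and the shared bases are 13.5% of its own. Reads in the shared bases cannot be assigned to either gene without strand.

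**Figure D3:**
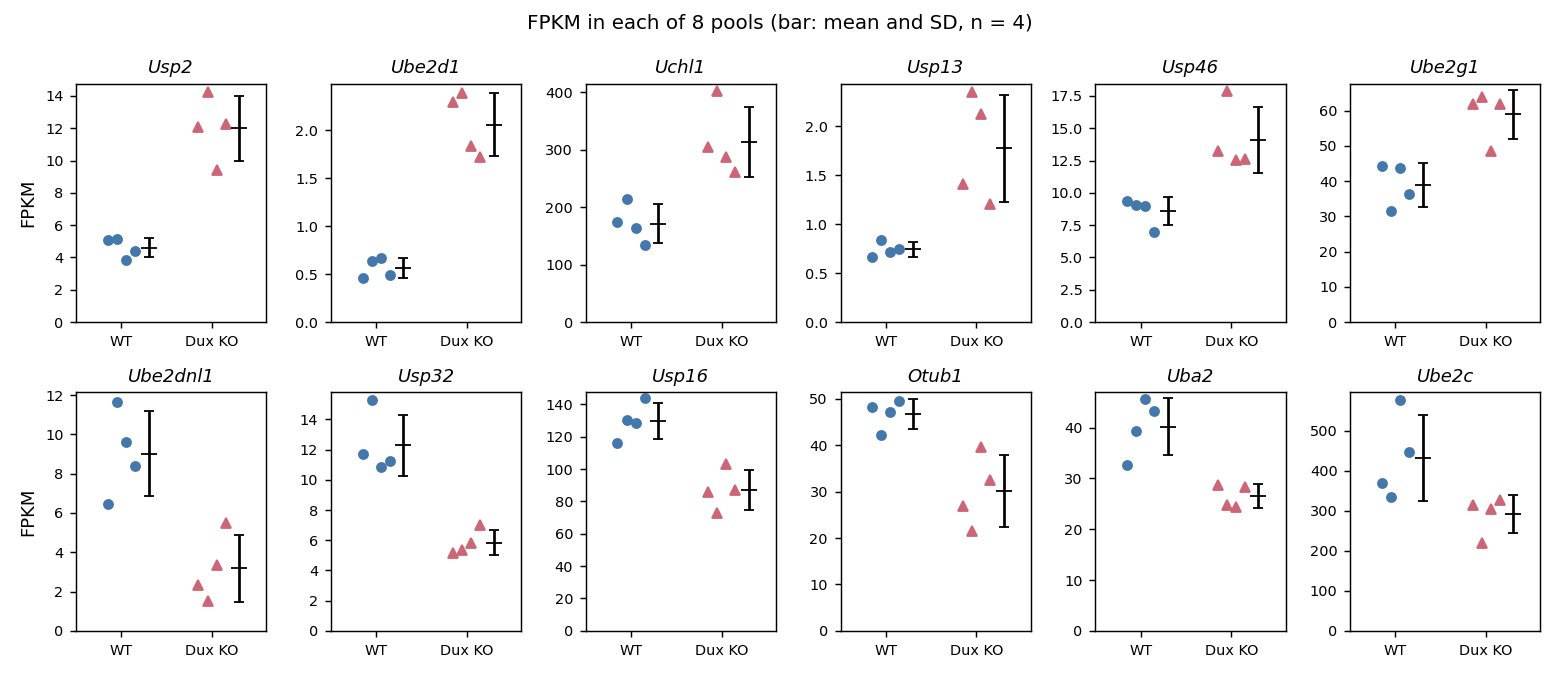
FPKM of 12 members in each of 4 WT (circles) and 4 Dux KO (triangles) pools, with the mean and SD of each group (n = 4) and axes that start at 0. The upper row shows 6 members called higher, and the lower row 5 called lower and Ube2c, the most abundant member, whose groups were apart without a call.

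The OTU family gave 2 lower calls and no higher call among 7 tested genes. Otub1, which cuts K48-linked chains and also blocks some E2 enzymes by binding them, fell from 48.3, 42.1, 47.1 and 49.4 FPKM to 26.9, 21.5, 39.7 and 32.6. Dux KO replicate 3 was the highest of its group and below the lowest WT pool (log2 fold change -0.65, limma BH-adjusted p = 0.0212). Otud6b, the most abundant OTU gene, fell from 101, 101, 149.8 and 110.3 to 79.3, 75.8, 88.5 and 76.7 FPKM (-0.50, limma BH-adjusted p = 0.0321), with WT replicate 3 standing above the other WT pools. Otub2, the relative of Otub1, had 4.76 ± 1.46 and 7.21 ± 1.42 FPKM and was not called with a log2 fold change of 0.53. Otud1, Otud3, Otud4 and Otud5 ranged from -0.36 to 0.34 and were not called. The call of Otub1 ended without WT replicate 4 (0.0566) or Dux KO replicate 1 (0.0598), and that of Otud6b without WT replicate 3 or 4 or Dux KO replicate 1, 2 or 4 (0.0523 to 0.0766). With quantile normalization both calls ended, at log2 fold changes of -0.49 for Otub1 (0.0527) and -0.24 for Otud6b (0.193).

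Of the 3 USP genes of the proteasome and free ubiquitin, Usp13 was called. Usp13, a relative of Usp5 that acts in endoplasmic reticulum quality control, rose from 0.664, 0.843, 0.721 and 0.7496 FPKM to 1.41, 2.35, 2.12 and 1.21 (log2 fold change 0.65, limma BH-adjusted p = 0.0116). Every Dux KO pool was above every WT pool, and Dux KO replicates 2 and 3 were the highest. Usp5, which takes apart unanchored chains, had 2.99 ± 0.469 and 2.49 ± 0.461 FPKM, and Usp14, which acts on the proteasome, 15.1 ± 6.36 and 18.2 ± 4.04. Neither was called, and 25.99% of the exonic bases of Usp14 overlap Thoc1, which was lower in Dux KO at 46.1 and 30.1 FPKM.

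Of 16 USP genes of chromatin and DNA repair, 2 rose and 1 fell. Usp16, a histone H2A deubiquitinase, was the most abundant USP gene and fell from 116, 130.2, 129 and 144 FPKM to 85.6, 72.9, 103 and 86.98. All Dux KO pools were below all WT pools (log2 fold change -0.57 ± 0.15 SE, limma BH-adjusted p = 0.0151), and the neighbour Cct8, which shares 2.03% of the exonic bases, was lower as well, at 231 and 155 FPKM. Usp46, which with WD-repeat partners acts on histones and receptors, rose from 9.34, 9.098, 8.999 and 6.98 to 13.3, 17.9, 12.6 and 12.6 FPKM. WT replicate 4 was the lowest pool and Dux KO replicate 2 the highest, and the other 3 of each group were close together (log2 fold change 0.65, limma BH-adjusted p = 0.01501). Usp44, of the mitotic checkpoint and histone H2B, was called higher at 0.807, 0.161, 0.824 and 0.452 and 0.923, 1.498, 1.35 and 0.908 FPKM (0.49, limma BH-adjusted p = 0.0444), on 9 to 95 reads per pool. Usp7, which acts on MDM2 and p53, was abundant and not called at 63.5 ± 6.87 and 61.03 ± 5.603 FPKM, as was Usp1, which reverses ubiquitination of PCNA and FANCD2, at 77.9 ± 8.89 and 87.4 ± 10.7 FPKM. Usp22, of the SAGA complex, had 11.8 ± 2.11 and 9.49 ± 2.62 FPKM and -0.31, not called. Other H2A or H2B deubiquitinases, Usp3, Usp12, Usp21 and Usp51, were not called, with log2 fold changes of 0.33, -0.18, 0.21 and 0.45. The call of Usp44 ended without WT replicate 2 or 4 or Dux KO replicate 1, 2 or 3 (0.0605 to 0.110), and with 7 of the alternatives that keep all pools (0.0516 to 0.105), among them edgeR (0.0738) and DESeq2 (0.0535). With quantile normalization the call of Usp16 ended, at a log2 fold change of -0.31 (0.0972).

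The 10 USP genes of membranes and organelles gave 3 lower and 2 higher calls. Usp32, an endosomal enzyme on chromosome 11 at 84984442 to 85140161, fell from 11.7, 15.3, 10.9 and 11.3 FPKM in the WT pools to 5.15, 5.37, 5.82 and 7.03 in the Dux KO pools. The groups were apart, with WT replicate 2 the highest (log2 fold change -0.95 ± 0.16 SE, limma BH-adjusted p = 0.00359). Usp33 and Usp20, related enzymes that act on membrane receptors, both fell. Usp33 lay at 9.503, 9.16, 15.7 and 15.3 and 6.27, 6.05, 9.48 and 6.86 FPKM (-0.70, limma BH-adjusted p = 0.0292). Its highest Dux KO pool, replicate 3, passed the 9.16 of WT replicate 2. Usp20 lay at 1.02, 1.804, 1.42 and 1.11 and 0.6799, 0.853, 0.711 and 0.796 FPKM (-0.40, limma BH-adjusted p = 0.0433). Usp8, which acts on endosomal sorting of receptors, rose from 12.4, 10.7, 19.1 and 13.02 to 22.2, 23.7, 18.9 and 20.8 FPKM, with WT replicate 3 inside the Dux KO range (0.62, limma BH-adjusted p = 0.0232). Usp25, at 0.395 ± 0.122 and 0.806 ± 0.238 FPKM, was called higher at a low level, 18 to 87 reads per pool (0.37, limma BH-adjusted p = 0.0455). Usp9x, of trafficking and cell adhesion, had 24.4 ± 10.7 and 33.8 ± 9.36 FPKM and was not called. Usp30, the enzyme of the mitochondrial outer membrane, had 1.32 ± 0.227 and 1.47 ± 0.279 FPKM and was not called. Calls ended without WT replicates 3 or 4 or Dux KO replicate 1, 2 or 4 for Usp33 (0.0518 to 0.0845), without all but WT replicate 1 for Usp20 (0.0579 to 0.105), without all but WT replicate 3 and Dux KO replicates 3 and 4 for Usp8 (0.0517 to 0.0598), and without all but Dux KO replicate 1 for Usp25 (0.0559 to 0.108). They also ended without trend and robust moderation for Usp20 (0.056) and Usp25 (0.0743), and with quantile normalization for Usp25 (0.151).

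Of 17 other tested USP genes, 3 rose and 2 fell. Usp2, on chromosome 9 at 44067021 to 44095627, had the largest rise of all members on the log2(FPKM + 1) scale, where by ratio of means Ube2d1 rose more. It deubiquitinates regulators such as MDM2 and cyclin D1 and is a clock-controlled gene in many tissues. Its level was 5.07, 5.12, 3.84 and 4.43 FPKM in WT replicates 1 to 4 and 12.1, 14.2, 9.39 and 12.3 in Dux KO replicates 1 to 4. The lowest Dux KO pool was well above the highest WT pool, with a 2.599-fold ratio of means, a log2 fold change of 1.20 ± 0.17 (SE), and a limma BH-adjusted p of 0.00207. Usp43 was higher at 1.18, 1.32, 0.525 and 1.39 and 2.25, 1.86, 2.104 and 2.87 FPKM (0.65, limma BH-adjusted p = 0.0188), with WT replicate 3 below the other WT pools. Usp6nl, not a peptidase, was higher at 0.574 ± 0.133 and 1.18 ± 0.414 FPKM (0.45, limma BH-adjusted p = 0.0382). Usp29, an imprinted gene next to Peg3, fell from 4.34, 5.204, 5.63 and 7.17 to 2.85, 2.33, 3.33 and 3.78 FPKM (-0.69, limma BH-adjusted p = 0.0169), and 14.3% of its exonic bases are shared with Zim3. Usp4 fell from 3.08, 4.17, 4.695 and 2.94 to 2.39, 2.43, 2.07 and 2.15 FPKM (-0.52, limma BH-adjusted p = 0.0337), while its relative Usp15 was above every WT pool in every Dux KO pool, at 26.1 ± 1.42 and 35.03 ± 6.904 FPKM, without a call (0.0715). Usp26, a germ-cell gene on chromosome X, and Usp9y, on chromosome Y, varied widely between pools, at 4.25, 1.86, 4.74 and 2.08 and 2.17, 6.46, 5.14 and 8.68 FPKM and at 2.36, 2.54, 1.03 and 2.15 and 3.53, 2.86, 2.34 and 0.6295 FPKM, and neither was called. The calls of Usp2 and Usp43 held without each single library. That of Usp29 ended without WT replicate 4 (0.0509), that of Usp4 without all but WT replicates 1 and 4 (0.0527 to 0.0796), and that of Usp6nl without all but Dux KO replicate 3 (0.0599 to 0.0867), with quantile normalization (0.105) and without trend and robust moderation (0.0516).

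Ratios between relatives within each pool show how the balance of similar enzymes differed, free of scaling between libraries. The 10 pairs were chosen after values were seen and carry no test, and 6 had ratios without overlap. In those 6 the gene named first was itself called with groups apart, so that the ratios in part restate those calls. How often gene pairs at large have ratios without overlap was not measured. Ube2d1 made up 0.0159 to 0.0273 of the level of Ube2d3 in the WT pools, against 0.0438 to 0.0636 in the Dux KO pools, and was the minor form in all 8. The Usp46 to Usp12 ratio went from 1.45 to 1.73 in WT to 2.54 to 4.33 in Dux KO, and that of Uchl1 to Uchl3 from 2.23 to 3.42 to 5.01 to 7.73. Usp13 was below Usp5 in every WT pool, at a ratio of 0.207 to 0.324, and between 0.387 and 1.05 in Dux KO. Downward moved Usp4 to Usp15, from 0.116 to 0.184 in WT to 0.0541 to 0.0748, and Otub1 to Otub2, from 7.43 to 13.1 in WT to 2.69 to 6.28. In the other 4 pairs, Ube2e1 and Ube2e3, Ube2v2 and Ube2v1, Usp33 and Usp20, and Usp25 and Usp28, the ranges overlapped.

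Genes of the same pathway outside the symbol rule were taken from 6 further lists. Their counts of calls stand beside the 15.5% of all tested genes called higher and the 18.1% called lower. No test was made over a list. All 4 ubiquitin precursor genes had a negative log2 fold change. Ubb, a polyubiquitin gene and the most abundant, had 149 ± 2.76 and 118 ± 10.6 FPKM and was not called (limma BH-adjusted p = 0.06202). Of 12 E1 and E2 genes named otherwise, 4 fell and 1 rose. Atg3, the E2 that attaches LC3 in autophagy, fell from 58.8, 46.3, 81.6 and 113 to 24, 16.9, 31.1 and 37.1 FPKM (log2 fold change -1.40, limma BH-adjusted p = 0.00647). Cdc34, the E2 of SCF ligases, rose from 29.8, 38.8, 34.1 and 32.9 to 53.02, 42.5, 41.2 and 50.9 FPKM (0.46, limma BH-adjusted p = 0.03599). Mocs3, Birc6 and Aktip were the other 3 that fell. The call of Atg3 held without each single library. Those of Cdc34, Mocs3, Birc6 and Aktip did not: the call of Cdc34 ended without WT replicate 1, 3 or 4 or Dux KO replicate 1 or 4 (limma BH-adjusted p 0.0618 to 0.105), that of Mocs3 without WT replicate 3 or 4 or Dux KO replicate 1 or 2 (0.0537 to 0.0757), that of Birc6 without all but WT replicate 1 and Dux KO replicate 4 (0.0548 to 0.0901), and that of Aktip without each of the 8 (0.0535 to 0.0824) and with quantile normalization (0.0768).

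Of 19 other genes listed as deubiquitinases and tested, 4 fell and 2 rose, and not all of them act on ubiquitin. Atxn3, a Josephin-domain enzyme that works with VCP, fell from 62.4, 53.5, 63.2 and 67.6 to 27.9, 27.8, 36.6 and 33.5 FPKM (-0.95, limma BH-adjusted p = 0.00276). Psmd14, the proteasome lid enzyme that removes chains from substrates, fell from 107, 90.6, 122 and 124 to 57.7, 43.3, 82.2 and 78.1 FPKM (-0.79, limma BH-adjusted p = 0.0164), and Uspl1, a SUMO protease, and Mysm1, a histone H2A enzyme, fell as well. Brcc3, a K63-specific enzyme, rose at 1.998 ± 0.341 and 4.37 ± 1.33 FPKM (limma BH-adjusted p = 0.00975), as did Josd1. Among 20 ubiquitin-like modifiers and their proteases, 3 rose and 4 fell: Senp8, the NEDD8 protease, rose from 3.76, 3.504, 2.07 and 1.801 to 6.897, 10.9, 6.89 and 5.29 FPKM (1.16, limma BH-adjusted p = 0.00626), with Ubl3 and Desi1, and Senp7, a SUMO-chain protease, Urm1, Ubl4a and Fau fell. Without single libraries, calls ended for Mysm1 (WT replicate 3 or 4 or Dux KO replicate 1 or 2, limma BH-adjusted p 0.0639 to 0.0934), Josd1 (WT replicate 2, 3 or 4 or Dux KO replicate 4, 0.0503 to 0.065), Desi1 (all but WT replicate 3 and Dux KO replicates 3 and 4, 0.0635 to 0.115), Ubl4a (all but WT replicate 2 and Dux KO replicates 3 and 4, 0.0756 to 0.0976) and Fau (WT replicate 4, 0.0591), and held for the other 8 genes called in these lists. With quantile normalization calls ended for Psmd14 (log2 fold change -0.54, 0.0527), Mysm1 (0.0614) and Ubl4a (0.0607).

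HECT and RBR ligases, the main partners of Ube2l3, gave 6 lower and 2 higher calls of 31. Over all tested genes, 18.1% were called lower and 15.5% higher. Arih2, an RBR ligase that works with cullins, fell at 13.04 ± 3.19 and 6.73 ± 1.06 FPKM (-0.84, limma BH-adjusted p = 0.00962), and Rbck1, of the linear-chain complex, at 3.55 ± 0.2898 and 1.78 ± 0.202 FPKM (-0.71, limma BH-adjusted p = 0.00595). Rnf216 and Ube3a fell too, and Hectd2 and Hecw1 rose at a low level. Of 17 ubiquitin shuttles and cofactors of the VCP segregase, 4 fell and 0 rose. Ubxn4, which holds VCP at the endoplasmic reticulum, fell from 138, 141, 136 and 135 to 76.4, 75.5, 102 and 81.95 FPKM (-0.72, limma BH-adjusted p = 0.00562), with Ubxn7, Ubxn1 and Faf1. Vcp itself had 2.31 and 1.79 FPKM and was not called. Without single libraries, calls ended for Rnf216 and Faf1 (WT replicate 4 or Dux KO replicate 1, limma BH-adjusted p 0.0543 to 0.0616), Ubxn1 (WT replicate 3 or 4 or Dux KO replicate 1, 0.0548 to 0.0726), Hecw1 (WT replicate 3 or 4 or Dux KO replicate 1 or 2, 0.0536 to 0.0596) and Hectd2 (all but WT replicate 3 and Dux KO replicate 3, 0.0747 to 0.126). With quantile normalization they ended for Ubxn1 (log2 fold change -0.45, 0.0881), Hecw1 (0.0714) and Hectd2 (0.112), that of Hectd2 also with the replicate block (0.0631), and the log2 fold change of Ubxn4 was -0.45, still called. The median log2 fold changes of the 6 lists lay between -0.44 for the precursors and 0.08 for the ligases, beside -0.02 for all genes.

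Promoter sequence was matched by symbol for 76 of the 98 members, with 93 starts, and 5 motifs were searched on both strands in the window of 300 bases. A gene was counted where any of its starts held the motif. The GC box GGGCGG was in 72.4% of these members, against 65.4% of 9116 tested genes and 38.2% of all 27025 genes with a promoter. The CCAAT box, CCAAT, was in 25%, 44.3% and 41.1%, and the ETS motif CCGGAAG in 22.4%, 20.8% and 9.93%. The E-box CACGTG was in 15.8%, 11.8% and 8.09%, and TATAAA in 6.58%, 8.95% and 15.7%. By call, GC boxes were in 8 of 10 members called higher, 6 of 11 called lower and 41 of 54 not called. In the same order, ETS motifs were in 1, 4 and 12, CCAAT boxes in 1, 4 and 14, E-boxes in 1, 3 and 8, and TATAAA in 0, 1 and 3. No test was made on them. These counts describe letters in a window, and motifs were counted without regard to overlap between them.

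Calls of single members rested on few pools. Of the 29 called members, 13 were called without each single library in turn, and Usp2 and Usp32 in all 20 alternatives. Ube2d1 was called in all 19 that gave it a value, being too low for the setting of at least 5 FPKM, as were 13 called members in all. No called member changed sign in an alternative that gave it a value. Without Dux KO replicates 1 and 2 together, 2 members stayed higher and 1 lower, where 2.83% and 3.56% of all genes were called. With at least 5 FPKM required, 10 of 59 members were higher and 10 lower, against 16% and 29.1% of all genes, and the member median was -0.09 with -0.18 over all genes. Leaving out WT replicate 4 gave 8 higher and 7 lower members, against 9.46% and 10.8% of genes, and leaving out WT replicate 2 gave 9 and 13, against 13.1% and 15.5%. Leaving out Dux KO replicate 1 gave 10 and 8, against 10.1% and 11.4%, and leaving out Dux KO replicate 2 gave 9 and 8, against 10.7% and 12.9%. DESeq2 on recovered reads called 23 and 18 of 98 members, against 18.9% and 19.5%, edgeR 17 and 17, against 16.4% and 17.7%, and limma with the replicate block 14 and 18 of 96, against 17.2% and 20.8%. Leaving out Dux KO replicates 1 and 2 together was the setting with the fewest calls. Leaving out Dux KO replicates 3 and 4 together, the same number of pools, gave 11 higher and 11 lower members, against 14.8% and 16.9% of all genes.

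**Figure D4:**
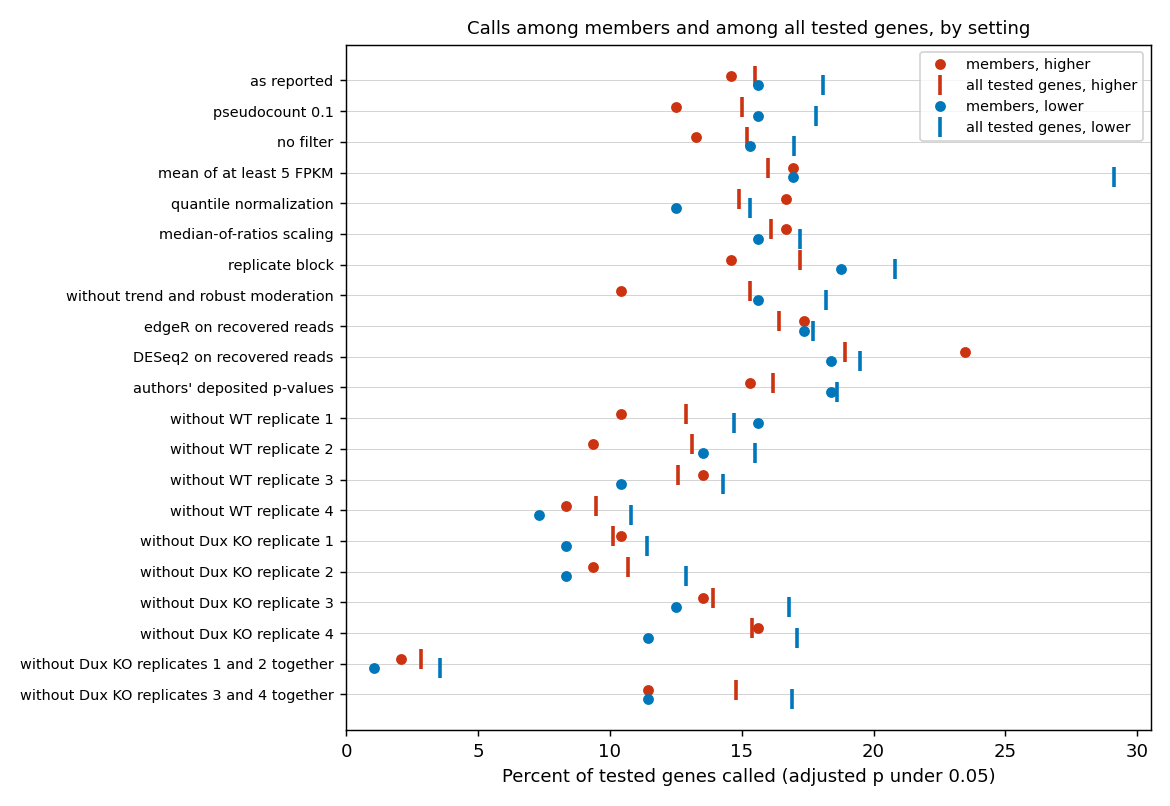
Percent of tested members (circles) and of all tested genes (vertical ticks) called higher or lower at an adjusted p under 0.05, under the reported fit and 20 alternatives. At a mean of at least 5 FPKM the tick for lower calls is at 29.1%, to the right of its circle, and circles and ticks are lowest without Dux KO replicates 1 and 2 together, with ticks at 2.83% and 3.56%.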

How the data were processed

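The 8 samples, 4 WT and 4 Dux KO by their labels, are RNA-seq libraries of 12 to 18 pooled mouse 2-cell embryos each. The authors deposited FPKM per gene and pool, which appear scaled by library size factors (inferred from the steps of the values). The deposited repeat table gives a signal in FPM, and both deposited tables also hold a mean count signal, the authors' log2 fold change and their adjusted p-value. Per the submitters' processing notes, the tools included Trimmomatic 0.32, STAR 2.6.1a and SAMtools 1.7, and the build was GRCm38 (mm10). Not given in the sources used here are the read counter, annotation, strand setting, handling of multi-mapped reads and the test behind the deposited p-values.

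Whole reads were recovered from the FPKM steps, with 100% of values whole within 0.05, and gave 12343369 to 14548526 reads per pool. No gene had a mean count under 25.0, so low genes had been left out before deposit. The 10 most abundant genes took 14.5 to 18.7% of reads. Chi-square values of recovered reads between pools of a group, divided by their degrees of freedom, were 13.8 to 117, so each pool was counted as a sample of its own. Coordinates and exon overlaps come from GENCODE M21 (GRCm38), in which 13100 of 13101 identifiers were found, and promoters from RefSeq (GRCm38.p6). Columns left unmapped to a sample numbered 0.

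Expression as log2(FPKM + 1) was fitted with limma 3.58.1 (R 4.3.3; variance trend, robust moderation, no covariate) over the 12434 genes that averaged at least 0.5 FPKM. Tests are two-sided, with Benjamini-Hochberg (BH) adjustment over all of them. The limma step was tested on simulated reads. These had the same spread setting for every gene and no shared differences between pools beyond library size. They therefore do not show how reliable the calls made here are. Named were all E1 members, the 10 called members of largest change each way that had groups apart and reached 1 FPKM in the higher one, the 8 most abundant, up to 3 called per list and direction (the top 2 by level in a list with no call), and the 3 of widest spread. A further part of that rule, on protein identity, was not applied, since no protein sequences were used here. Other members and called pathway genes were named after their values were seen. The members, role lists, pathway lists and markers were chosen with earlier results of these data known. The 20 alternatives changed the pseudocount (0.1), the filter (none, or 5 FPKM), the scaling (quantile, median of ratios), the variance model (no trend or robust moderation), the block (replicate number), the tool (edgeR 4.0.16 quasi-likelihood or DESeq2 1.42.0 with the recovered reads, or the deposited p-values) or the pools (each left out, and Dux KO replicates 1 with 2 and 3 with 4). limma called 4182 genes, edgeR 4469 and DESeq2 5021. Same-numbered WT and Dux KO pools deviated together with correlations of -0.12, 0.33, -0.06 and 0.30. Differently numbered pools gave -0.40 to 0.27, so that replicates 2 and 4 correlated most with their own number and replicates 1 and 3 did not. These values do not settle whether the numbers pair samples. The reported fit used no pairing, and the block on replicate number was an alternative. Some genes are not reported here by name.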

Additional observations from a re-analysis of the deposited data

Results flagged for a closer look

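In groups of 4 pools, a value was picked out where its distance to the nearest other pool took up more of the group's range on the log2(FPKM + 1) scale than Dixon's 95% critical value. Over 144 groups of the 72 genes tested one by one, 9 were picked out, and chance picks out about 1 in 20. In WT, the share of the range was 0.914 for Ube2e1 (replicate 2 low), 0.93 for Ube2v2 (replicate 3 low), 0.894 for Uchl1os (replicate 3 low), 0.871 for Usp46 (replicate 4 low), 0.839 for Brcc3 (replicate 3 high) and 0.843 for Josd1 (replicate 1 high). In Dux KO it was 0.884 for Ube2g1 (replicate 3 low), 0.851 for Usp46 (replicate 2 high) and 0.956 for Josd1 (replicate 4 high). In all of these genes the highest pool of the lower group remained below the lowest pool of the higher group.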

How the results depend on the processing

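With the reported fit, 14 members were higher and 15 lower in Dux KO. DESeq2 on recovered reads gave 23 higher and 18 lower, beside 18.9% and 19.5% of all genes, and edgeR 17 and 17. Leaving out single pools gave 8 to 15 higher and 7 to 15 lower, beside 9.46 to 15.4% and 10.8 to 17.1% of all genes. Higher calls numbered 9, 8 and 9 when WT replicate 2, WT replicate 4 or Dux KO replicate 2 was left out, and lower calls 7, 8 and 8 when this was WT replicate 4, Dux KO replicate 1 or Dux KO replicate 2. Without Dux KO replicates 1 and 2 together, 2 were higher and 1 lower, where without Dux KO replicates 3 and 4 together 11 were higher and 11 lower. The cause of this difference was not tested. The other alternatives gave 10 to 16 higher and 10 to 18 lower, beside 14.9 to 17.2% and 15.3 to 29.1% of all genes. The 29.1% was at a mean of at least 5 FPKM. With the replicate block the counts were 14 and 18. The numbers are shared by the labels of both groups but were not shown to pair pools.

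The member median of 0.06 became -0.093 at a mean of at least 5 FPKM, where the median over all genes was -0.18 and fewer genes were tested, and lay between -0.00 and 0.06 without single pools. Of the 67 members not called, 14 changed sign in some alternative. Among them 5 were named by the rule in the processing section: Uba1 (0.13 with Dux KO replicates 1 and 2 left out), Uba3 (-0.025 in that setting, and -0.046 to 0.20 over single pools, the lowest for Dux KO replicate 2), Uba6 (0.016 with Dux KO replicates 3 and 4 left out, and -0.18 to 0.027 over single pools, the highest for Dux KO replicate 4), Ube2b (0.052 with quantile normalization) and Usp9y (-0.34 with Dux KO replicates 1 and 2 left out, and over single pools -0.10 to 0.39, with -0.10, -0.097 and -0.020 for WT replicate 3 and Dux KO replicates 1 and 2). Over 72 genes and 20 alternatives, 256 values lost their call, 15 gained one and 10 reversed.

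With 4 pools a group, members near the threshold are called or not on single pools. At 9 to 95 reads per pool, as for Usp44, counting error adds to the spread. FPKM folds of genes near 1 FPKM are understated by the pseudocount. Reads of overlapping or near-identical genes may be mixed: 31 members overlap exons of another gene, 11 of them called.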
